A study of Ovis aries with 2 samples.

Results

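The WNT ligand genes WNT3, WNT5A, WNT10A and WNT10B were followed across every cell of 2 single-cell RNA-seq libraries of sheep skin. They were chosen by name as ligands of hair follicle and skin, and all 4 were present among the 18161 genes of the deposited table, which held 13 WNT ligand genes in all. The skin came from Hu sheep lambs at 3 days of age, from the body side, with 1 library of straight wool lambs and 1 library of curly wool lambs, whose phenotype the labels also give as waved. Skins of 3 lambs were pooled for each library, and cells of microdissected hair follicles were added to cells of dissociated whole skin, and cell type proportions also reflect how both suspensions were combined. Each wool type thus had 1 library, the spread between lambs is unknown, and differences between the wool types are given without a test.

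WNT ligands are secreted, lipid-modified glycoproteins that act over short distances on frizzled receptors and their LRP co-receptors. In the canonical branch the signal stabilises β-catenin, which enters the nucleus and acts with LEF1 and TCF factors on target genes such as AXIN2. In other branches, for which WNT5A is the best known ligand, the signal passes through receptors such as ROR2 without β-catenin. In the hair follicle, canonical WNT signalling is known for placode formation, for the start of growth and for hair shaft formation, and WNT10B and WNT10A are among the ligands tied to these steps. WNT3 and its relatives are known as epidermal ligands, and WNT5A as a ligand of the dermal papilla, the mesenchymal core of the follicle bulb.

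The straight library held 6452 cells and 57956122 UMIs (a UMI marks 1 captured RNA molecule), with a median of 7373.5 UMIs per cell, and the curly library 7585 cells and 77634565 UMIs, with a median of 7495. A gene with no UMI in a library may lie at up to 3 counts, which is 0.0518 CPM (UMIs of a gene scaled to 1e+06 UMIs) in the straight and 0.0386 CPM in the curly library. The libraries shared 70 cell barcodes. Cells were grouped into 24 clusters with all WNT pathway genes kept out of the grouping, so that no ligand helped to define the cluster it was measured in. Clusters were named from marker genes, for example DPC-like for dermal papilla cells, matrix-like for the dividing cells of the bulb, IRS-like for the inner root sheath, HFSC-like for hair follicle stem cells and suprabasal IFE-like for the upper layers of the interfollicular epidermis. A cluster that met no class is called by its leading genes, and 20 clusters with at least 25 cells in each library were compared. The names came from markers rebuilt for this purpose and may not match the study's own cell types. Intervals are 95% intervals that cover counting error only, not differences between lambs.

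The ligands differed in where they were highest, though WNT10A and WNT10B were both high in hair shaft-like cells. WNT3 was highest in epidermal cells, WNT5A in DPC-like cells, WNT10A in hair shaft-like cells and WNT10B in matrix-like and hair shaft-like cells, and the leading cluster was the same in both libraries for WNT3, WNT5A and WNT10A. Over all cells, WNT3 had 840 UMIs in 441 straight cells and 749 UMIs in 445 curly cells. WNT5A had 711 UMIs in 571 straight cells and 535 UMIs in 446 curly cells. WNT10A had 1359 UMIs in 832 straight cells and 1804 UMIs in 1022 curly cells. WNT10B was the sparsest of these ligands, with 174 UMIs in 127 straight cells and 308 UMIs in 236 curly cells. Most cells with a ligand showed 1 UMI of it, and the highest number in a single cell was 15, for WNT10A in each library. No UMI of any of the 4 ligands was found in 74.6% of straight and 77.1% of curly cells, and at least 2 different ligands were met in few cells, with exactly 2 in 4.15% of straight and 4.54% of curly cells.

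**Figure D1:**
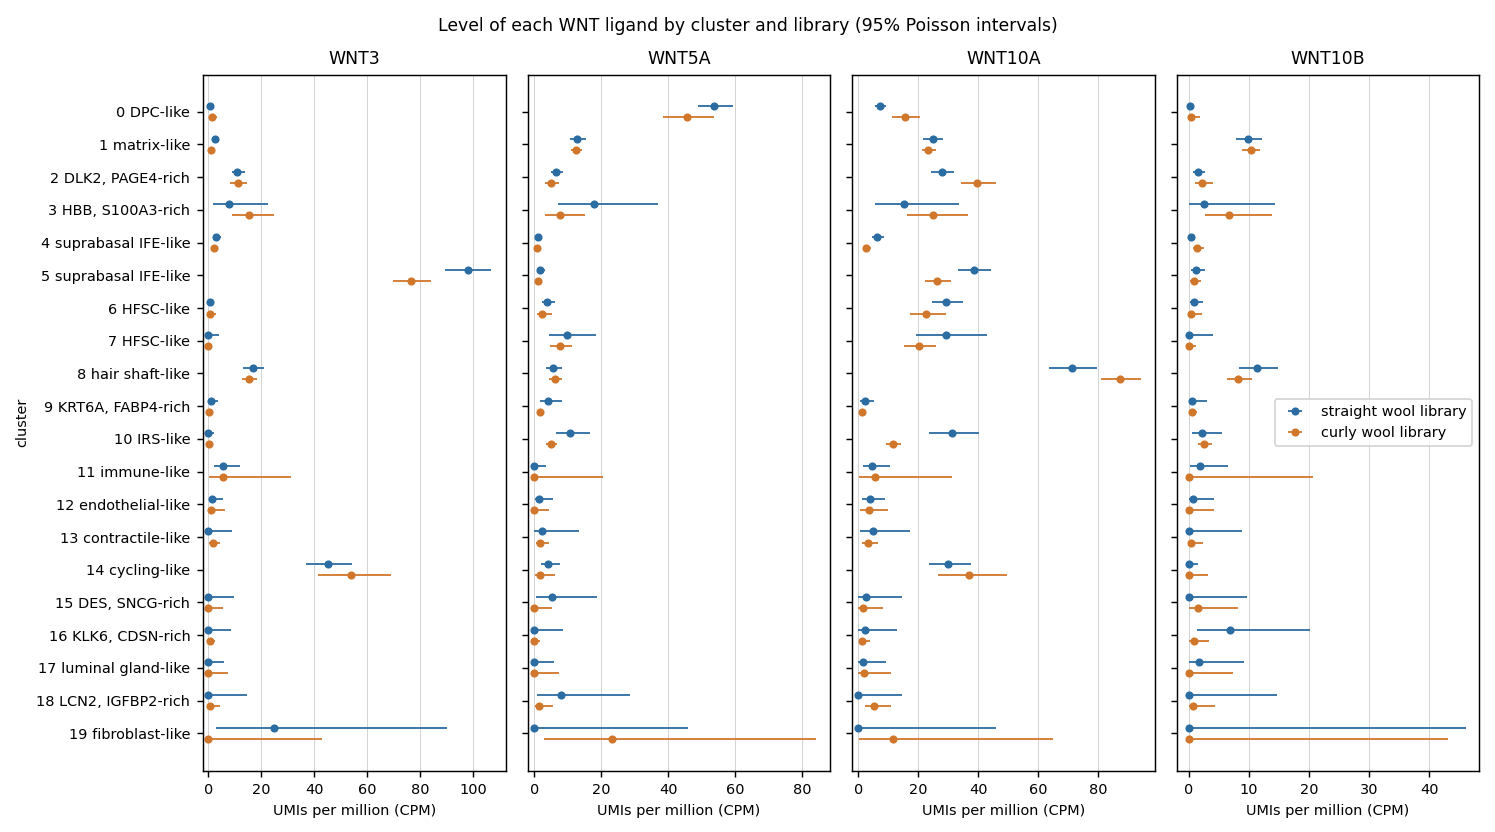
Level of WNT3, WNT5A, WNT10A and WNT10B in CPM (x axis, a separate linear scale for each ligand) in 20 clusters (y axis), with 1 point per library and 95% Poisson intervals. WNT3 peaks in cluster 5 at 98.1 CPM in the straight and 76.7 CPM in the curly library, WNT5A in cluster 0, WNT10A in cluster 8, and WNT10B in clusters 1 and 8, while wide bars mark clusters with few UMIs such as cluster 19.

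WNT3 was mostly an epidermal ligand in both libraries. In suprabasal IFE-like cluster 5, led by the cornified envelope genes CNFN and FLG and by SPINK7, its level was 98.1 CPM (89.6 to 107) in straight cells and 76.7 CPM (69.8 to 84.2) in curly cells. This cluster held 57.6% of all WNT3 UMIs of the straight library and 59.7% of those of the curly library. The level was 14.6-fold (12.7 to 16.8) that of all other cells in the straight library and 18.2-fold (15.7 to 21.2) in the curly library. Among the compared clusters, cycling-like cluster 14 came next with 45.1 CPM in the straight and 54.0 CPM in the curly library. The second best marker class of cluster 14 was the basal epidermis. Cluster 5 was above cluster 14 by 2.17-fold (1.76 to 2.70) in the straight and by 1.42-fold (1.09 to 1.88) in the curly library. Among clusters with at least 20 UMIs of the gene in each library, hair shaft-like cluster 8 followed with 16.9 CPM (13.3 to 21.2) in the straight and 15.4 CPM (12.7 to 18.4) in the curly library. Cluster 2, led by DLK2 and PAGE4, had 11.0 CPM (8.77 to 13.7) in the straight and 11.1 CPM (8.25 to 14.6) in the curly library, and its intervals overlapped those of the hair shaft-like cells. This cluster scored closest to the basal interfollicular epidermis without reaching the limit for that name. Cluster 23, led by KRT2.11 and BIIIB4 and scored closest to the hair shaft, was too small to be compared. In its 20 straight cells WNT3 was at 66.7 CPM (41.8 to 101), from 22 UMIs in 8 cells. In its 13 curly cells WNT3 was at 6.09 CPM, from 1 UMI. The level in cluster 5 moved when cells were left out and the rest were clustered again. In the best matching cluster it was 52.8 and 42.4 CPM when only cells above the study's stated minimum of genes per cell were used, and 52.7 and 43.7 CPM when the 842 cells with the highest 6% of doublet scores were removed.

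A WNT3 UMI was present in 51.7% (46.9 to 56.4) of the 451 straight cells and 46.3% (41.9 to 50.9) of the 492 curly cells of cluster 5. After thinning to 2000 UMIs, which left out 47 straight and 27 curly cells of fewer UMIs, these shares were 19% and 15.9%. Endothelial-like cells, which served as a background for RNA free in the suspension, had thinned shares of 0.295% and 0.078%, with 61 of 192 straight and 52 of 166 curly cells left out, and median depths of 5306 and 3827 UMIs against 11326 and 10667 in cluster 5. WNT3 was not found in HFSC-like cluster 7, the cells with LGR5 and KRT15, at 0 of 917619 UMIs in the straight and 0 of 2912392 UMIs in the curly library, which allows up to 3.27 and 1.03 CPM (3 counts). In the other suprabasal IFE-like cluster, cluster 4, led by KRT79 and CST6, WNT3 was at 3.08 CPM in the straight and 2.28 CPM in the curly library. The suprabasal IFE-like clusters thus differed widely in this ligand.

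Within cluster 5 the level differed between sub-clusters. A finer grouping, also made without WNT pathway genes, split most of it into KRT5-rich and FLG-rich cells. The KRT5-rich cells were rich in ACKR4, KRT14, KRT5 and COL18A1, of which KRT14 and KRT5 are keratins of the basal layer. The FLG-rich cells were rich in FLG, KLK7 and LOR, genes of the uppermost layers. In the KRT5-rich cells WNT3 was at 121 CPM (110 to 133) in 334 straight cells and at 103 CPM (93.5 to 114) in 361 curly cells. They held 452 of the 484 straight and 418 of the 447 curly WNT3 UMIs of cluster 5. In the FLG-rich cells WNT3 was at 25.3 CPM (16.8 to 36.5) and 15.6 CPM (10.3 to 22.7). The KRT5-rich cells were thus higher, by 4.79-fold (3.27 to 7.29) in the straight and 6.61-fold (4.48 to 10.2) in the curly library.

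**Figure D2:**
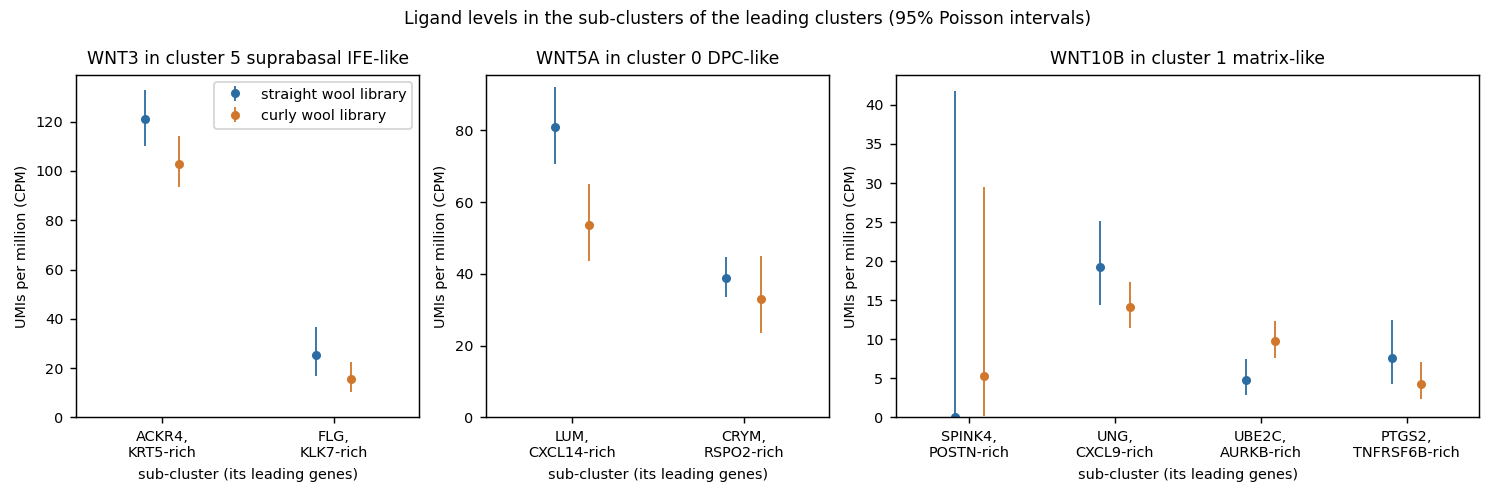
Levels in CPM (y axes, linear) of WNT3, WNT5A and WNT10B in the sub-clusters (x axis, named by leading genes) of cluster 5, cluster 0 and cluster 1, per library with 95% Poisson intervals. WNT3 is at 121 and 103 CPM in the KRT5-rich cells against 25.3 and 15.6 CPM in the FLG-rich cells, and WNT5A is higher in the LUM-rich than in the RSPO2-rich DPC-like cells.

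WNT5A was highest in DPC-like cells. In DPC-like cluster 0 its level was 53.9 CPM (48.9 to 59.3) in 1235 straight cells and 45.6 CPM (38.4 to 53.7) in 662 curly cells. This was 9.42-fold (8.09 to 11.0) the level of all other cells in the straight and 8.62-fold (7.06 to 10.5) in the curly library. Among clusters with at least 20 UMIs of the gene in each library, matrix-like cells followed with 12.9 CPM (10.6 to 15.4) and 12.5 CPM (10.9 to 14.3). The DPC-like cells held 59.6% of all WNT5A UMIs of the straight but 26.4% of those of the curly library, where the matrix-like cells held 40.6%, against 16% in the straight library. IRS-like cells had 10.8 CPM in the straight and 4.97 CPM in the curly library, and hair shaft-like cells 5.64 and 6.14 CPM. A WNT5A UMI was found in 26.2% (23.8 to 28.8) of straight and 17.2% (14.4 to 20.3) of curly DPC-like cells, or in 10.5% and 8.23% after thinning to 2000 UMIs, with 54 and 57 cells left out. Immune-like cluster 11 had no UMI of WNT5A in either library, which allows up to 2.73 CPM in the straight and 16.9 CPM in the curly library, and endothelial-like cells had 2 UMIs in the straight and 0 in the curly library.

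In cluster 0, 5 of 6 papilla markers were detected in at least 10% of cells, and all 6 had UMIs in each library. IGFBP3, FGF7, EDN3 and APOD were highest in this cluster. SOX18 was highest in endothelial-like cells, at 407.4 CPM in the straight and 372.6 CPM in the curly library. CORIN was highest in fibroblast-like cells, at 12.48 and 11.67 CPM. The fibroblast marker sum of cluster 0 was 2232 CPM in the straight and 1649 CPM in the curly library. The part of these markers in the WNT5A level was not tested. WNT5A was not even among these cells. The sub-cluster rich in LUM, CXCL14, MGP, DCN and BMP4 had 80.9 CPM (70.7 to 92.1) in 618 straight cells and 53.6 CPM (43.6 to 65.1) in 461 curly cells. The sub-cluster rich in CRYM, RSPO2, FGF7 and SOSTDC1, of which RSPO2 encodes an enhancer of WNT signalling and FGF7 a growth factor for keratinocytes, had 38.8 CPM (33.5 to 44.6) in 617 straight cells and 33.1 CPM (23.6 to 45.1) in 201 curly cells. The LUM-rich cells were thus higher, by 2.09-fold (1.72 to 2.54) in the straight and 1.62-fold (1.11 to 2.40) in the curly library. The same sub-cluster held most of the WNT10A of cluster 0, at 17.0 and 23.3 CPM against 1.79 and 3.31 CPM in the RSPO2-rich cells, which is 9.47-fold (4.60 to 22.0) and 7.05-fold (2.57 to 27.0).

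WNT10A was the broadest of these ligands. Its level in hair shaft-like cluster 8, the cells with the hair keratins KRT35 and KRT84, was 71.3 CPM (63.6 to 79.6) in 265 straight cells and 87.4 CPM (81.0 to 94.2) in 427 curly cells. This was 3.66-fold (3.21 to 4.15) the level of all other cells in the straight and 5.45-fold (4.94 to 5.99) in the curly library. Below it came a run of epithelial clusters, ordered by the mean of both libraries, in which the intervals of neighbours overlapped. Cluster 2 had 28.0 and 39.7 CPM in straight and curly cells, cluster 14 had 30.0 and 36.9 CPM, and cluster 5 had 38.5 and 26.4 CPM. HFSC-like cluster 6, with PTHLH and CXCL14, had 29.4 and 22.7 CPM, HFSC-like cluster 7 had 29.4 and 20.3 CPM, and matrix-like cells had 24.8 and 23.4 CPM. Clusters that were not neighbours could be apart. In curly cells the interval of cluster 2 (34.2 to 45.9) lay above that of cluster 5 (22.4 to 31). In straight cells that of cluster 5 (33.2 to 44.4) lay above that of matrix-like cells (21.6 to 28.3). A WNT10A UMI was found in 54.3% (48.1 to 60.4) of straight and 64.4% (59.7 to 68.9) of curly hair shaft-like cells, or in 12.9% and 15.2% after thinning to 2000 UMIs, with 20 and 12 cells left out. Endothelial-like cells had thinned shares of 0.537% and 0.751%, and levels of 3.83 and 3.47 CPM.

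IRS-like cluster 10 had 31.2 CPM in the straight library, which is in the range of these epithelial clusters, and 11.6 CPM in the curly library. Cluster 3, led by HBB and S100A3, had 15.4 and 24.9 CPM from 6 and 26 UMIs. The KRT6A-rich cluster 9, which scored closest to the companion layer between the inner and outer root sheaths, had 2.12 CPM in the straight and 1.38 CPM in the curly library, and suprabasal IFE-like cluster 4 had 6.30 and 2.78 CPM. Inside cluster 5 WNT10A, like WNT3, was higher in the KRT5-rich cells, with 45.5 and 36.3 CPM there against 16.2 and 4.04 CPM in the FLG-rich cells, which is 2.80-fold (1.72 to 4.84) in the straight and 8.97-fold (4.24 to 22.7) in the curly library. In the hair shaft-like cluster, by contrast, the sub-clusters were close, at 69.9 and 91.2 CPM in the DLK2-rich and 71.5 and 86.9 CPM in the KRT84-rich cells.

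WNT10B was highest in cells of the follicle bulb and hair shaft. Matrix-like cells had FABP7 and DCN among their leading genes. Their matrix marker score was 2.15, against 2.03 for the cycling class. Among the compared clusters the matrix markers MSX1, MSX2 and ID3 were highest in hair shaft-like cluster 8, and DCN in fibroblast-like cluster 19. WNT10B in matrix-like cells was at 9.81 CPM (7.86 to 12.1) in the straight and 10.3 CPM (8.82 to 11.9) in the curly library. Hair shaft-like cells had 11.3 CPM (8.37 to 14.9) and 8.19 CPM (6.31 to 10.5). The ratio of matrix-like over hair shaft-like cells was 0.870-fold (0.608 to 1.26) in the straight and 1.25-fold (0.938 to 1.7) in the curly library, so that the order of these clusters was not resolved. Both clusters together held most UMIs of the gene, as matrix-like cells held 50% and hair shaft-like cells 28.7% in the straight library, and 57.8% and 20.8% in the curly library. Against all other cells, matrix-like cells were 5.54-fold (4.07 to 7.54) higher in the straight and 4.77-fold (3.78 to 6.02) in the curly library. No UMI of WNT10B was found in cluster 14 or in HFSC-like cluster 7 in either library. In cluster 14 this allows up to 1.23 CPM in the straight and 2.57 CPM in the curly library. A WNT10B UMI was found in 8.92% (6.81 to 11.4) of straight and 11.6% (9.70 to 13.6) of curly matrix-like cells. After thinning to 2000 UMIs, with 92 and 77 cells left out, these shares were 2.51% and 2.06%, where endothelial-like cells had 0.129% and 0%.

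The matrix-like cells fell into sub-clusters that differed in these ligands. WNT10A itself was among the leading genes of cells rich in UNG, CXCL9 and FABP7. In these cells WNT10B was at 19.2 CPM (14.4 to 25.1) in the straight and 14.1 CPM (11.4 to 17.3) in the curly library, and WNT10A at 50.6 CPM (42.6 to 59.7) and 37.9 CPM (33.3 to 42.9). The finer grouping placed these cells in the same cluster as the DLK2-rich hair shaft-like cells. Those had WNT10A at 69.9 CPM in the straight and 91.2 CPM in the curly library. In cells rich in the mitotic genes UBE2C, AURKB and TOP2A, WNT10B was at 4.77 CPM (2.87 to 7.44) and 9.75 CPM (7.60 to 12.3). In cells rich in PTGS2, PLAU and AREG, genes of stress and growth factor responses, WNT10A was lowest, at 5.04 and 5.48 CPM, and WNT5A was at 21.7 CPM (15.7 to 29.2) and 15.5 CPM (11.6 to 20.4). WNT10A was thus 10.0-fold (5.30 to 21.4) and 6.91-fold (4.29 to 11.9) higher in the UNG-rich than in the PTGS2-rich cells. For WNT10B the same ratio was 2.53-fold (1.41 to 4.84) and 3.31-fold (1.88 to 6.28).

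Matrix cells give rise to the inner root sheath and the hair shaft, and the ligands were followed on both ways. The cells of these clusters were ordered by diffusion pseudotime, starting from matrix-like cells. The ordering also held 810 cells of clusters 9 and 16, which scored closest to the companion layer and lay on neither way. Each way was made of matrix-like cells and its end cluster, and was cut into 5 parts of equal cell number. The levels at an end are thus not separate evidence from those of the end cluster. WNT10A was highest at the end of the hair shaft way. It was at 34.9, 30.4, 22.9, 22.1 and 81.5 CPM over the 5 parts in straight cells and at 31.5, 26.0, 19.2, 38.8 and 93.0 CPM in curly cells. The last part, 98.4% and 99.0% hair shaft-like cells, thus held more than 2 times the level of any earlier part in each library. At the end of the inner root sheath way WNT10A was at 31.7 CPM (23.5 to 42) in the straight and 14.1 CPM (11.4 to 17.3) in the curly library. The log2 ratio of the hair shaft end over the inner root sheath end was 1.36 (0.92 to 1.83) in straight and 2.72 (2.40 to 3.06) in curly cells.

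WNT10B and WNT5A behaved otherwise along these ways. WNT10B went from 11.8 and 20 CPM in the first and second parts of the inner root sheath way to 1.94 CPM (0.401 to 5.68) in the last part in straight cells, and from 13.7 and 11.2 CPM to 4.97 CPM (3.40 to 7.01) in curly cells. On the hair shaft way it ended at 9.19 CPM (6.20 to 13.1) in the straight and 7.69 CPM (5.57 to 10.4) in the curly library. The log2 ratio of WNT10B at the hair shaft end over the inner root sheath end was 2.24 (0.56 to 4.60) in straight cells, from 30 and 3 UMIs, and 0.63 (-0.06 to 1.34) in curly cells, where its interval included 0. WNT5A was at 4.29 CPM (2.34 to 7.19) and 3.76 CPM (2.33 to 5.74) at the hair shaft end, below the 17.5 CPM (12.9 to 23.1) and 12.8 CPM (9.93 to 16.3) of the part before it. At the inner root sheath end WNT5A was at 9.72 CPM (5.44 to 16.0) and 5.90 CPM (4.17 to 8.10). WNT3 was at 21.4 CPM in the straight and 19.9 CPM in the curly library at the hair shaft end, from 70 and 111 UMIs. At the inner root sheath end it had 1 UMI in the straight and 4 in the curly library, which is 0.648 and 0.621 CPM. Its log2 ratio between these ends was 5.05 (2.52 to 10.37) in straight and 5.00 (3.60 to 6.90) in curly cells. The ordering used no WNT pathway gene.

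**Figure D3:**
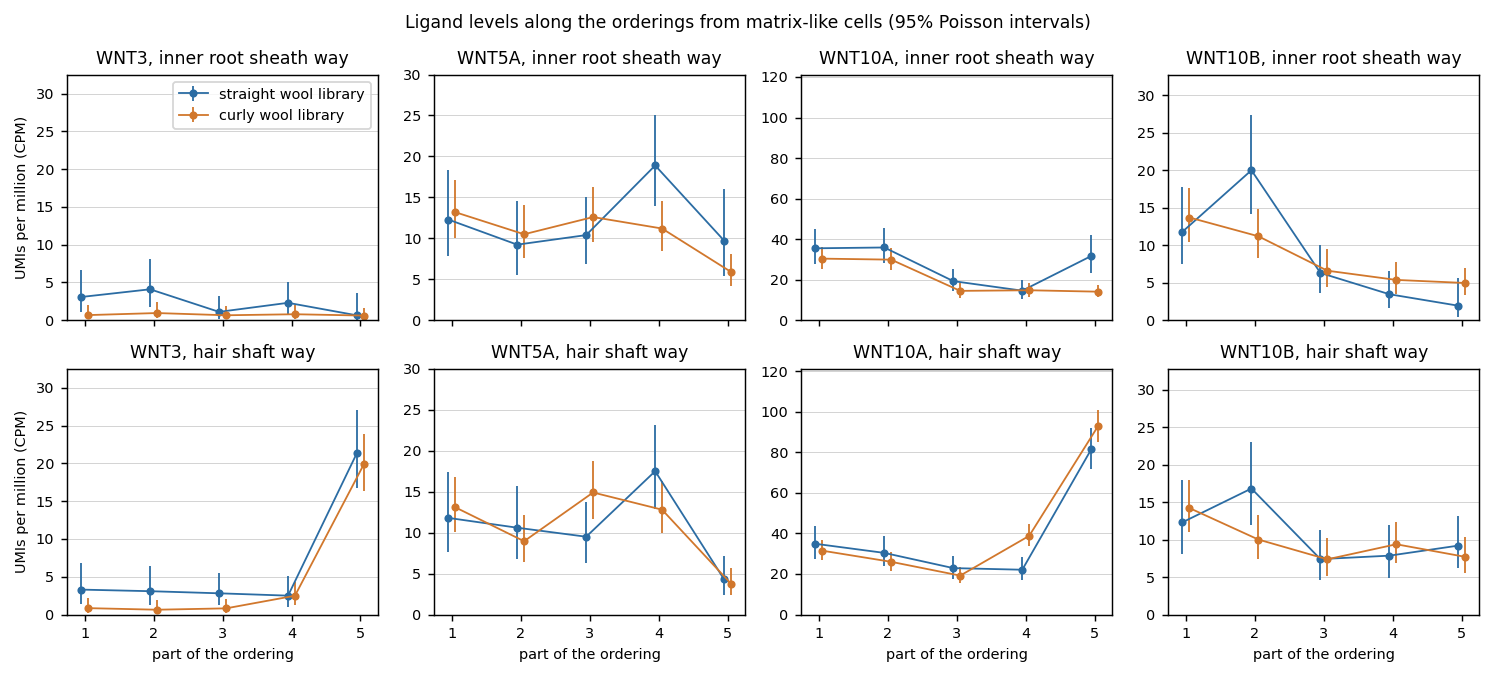
Levels of the 4 ligands in CPM (y axes, linear, the same for both ways of a ligand) in 5 parts of the ordering (x axis) from matrix-like cells to IRS-like cells (upper row) and to hair shaft-like cells (lower row), per library with 95% Poisson intervals. WNT10A ends at 81.5 and 93.0 CPM on the hair shaft way against 31.7 and 14.1 CPM on the inner root sheath way, and WNT10B is lower at the inner root sheath end than in the first parts.

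Ligands met in the same cells in places. In cluster 5, 87 of 451 straight cells had UMIs of both WNT3 and WNT10A, where 66.2 cells would be given by the product of both shares within 5 depth classes of equal cell number, and 69 of 492 curly cells had both, against 48.1. In matrix-like cells 33 of 628 straight cells had both WNT10A and WNT10B, against 12.5, and 64 of 1064 curly cells, against 31.4. WNT10A was met less with WNT11, a ligand mostly of the non-canonical branch, in 17 straight matrix-like cells against 21.3 and in 26 curly cells against 46.7. In hair shaft-like cells WNT10A and WNT10B were found together in 27 straight and 38 curly cells, close to the 22.5 and 34.6 cells of the product. The product was taken within depth classes and not within sub-clusters. WNT3 and WNT10A were both higher in the KRT5-rich cells of cluster 5, and WNT10A and WNT10B in the UNG-rich matrix-like cells. The part of sub-clusters in the cells with both ligands was not tested. Cells of 1 library are not replicates, so these counts describe the libraries only.

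The curly and straight libraries were set side by side for each ligand in its leading cluster. WNT3 in cluster 5 was lower in the curly library, with a log2 ratio of curly over straight of -0.35 (-0.54 to -0.17), which became 0.00 when WNT genes were kept among the clustering genes. WNT5A in DPC-like cells had -0.24 (-0.53 to 0.04). It was -0.59 (-0.95 to -0.25) in the smaller cluster matched to these cells at resolution 0.8, and -0.67 (-2.30 to 0.56) without integration, where the matched cluster held 1239 straight and 24 curly cells. WNT10A in hair shaft-like cells was higher in the curly library, with 0.29 (0.10 to 0.49), but a mean of the levels of single cells gave -0.14. WNT10B in matrix-like cells had 0.07 (-0.31 to 0.45). The smaller cluster matched at resolution 0.8, that of the UBE2C-rich cells, had 1.03 (0.28 to 1.84). The UNG-rich matrix-like cells had -0.44 (-0.95 to 0.07) and the PTGS2-rich ones -0.83 (-1.99 to 0.32). In the grouping used here the intervals of WNT5A and WNT10B included 0, and no ligand was 2-fold apart in its leading cluster. Among all genes with at least 20 UMIs, 14.1% were at least 2-fold apart between the libraries in cluster 5, 13.3% in DPC-like cells, 7.93% in hair shaft-like cells and 6.28% in matrix-like cells.

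Marker levels also differed between the libraries in these clusters. In cluster 5 the summed level of 5 basal epidermal markers was 29708.5 CPM in the straight and 19160.0 CPM in the curly library, with 0 of 5 higher in curly, and that of 6 suprabasal markers 48902.3 and 69938.4 CPM, with 6 of 6 higher. Within the KRT5-rich sub-cluster the WNT3 ratio was -0.23 (-0.43 to -0.04). In hair shaft-like cells the summed hair shaft markers were 9449 and 11259.4 CPM, and 2 of 4 were higher in curly. The part of these marker differences in the ligand ratios was not tested.

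**Figure D4:**
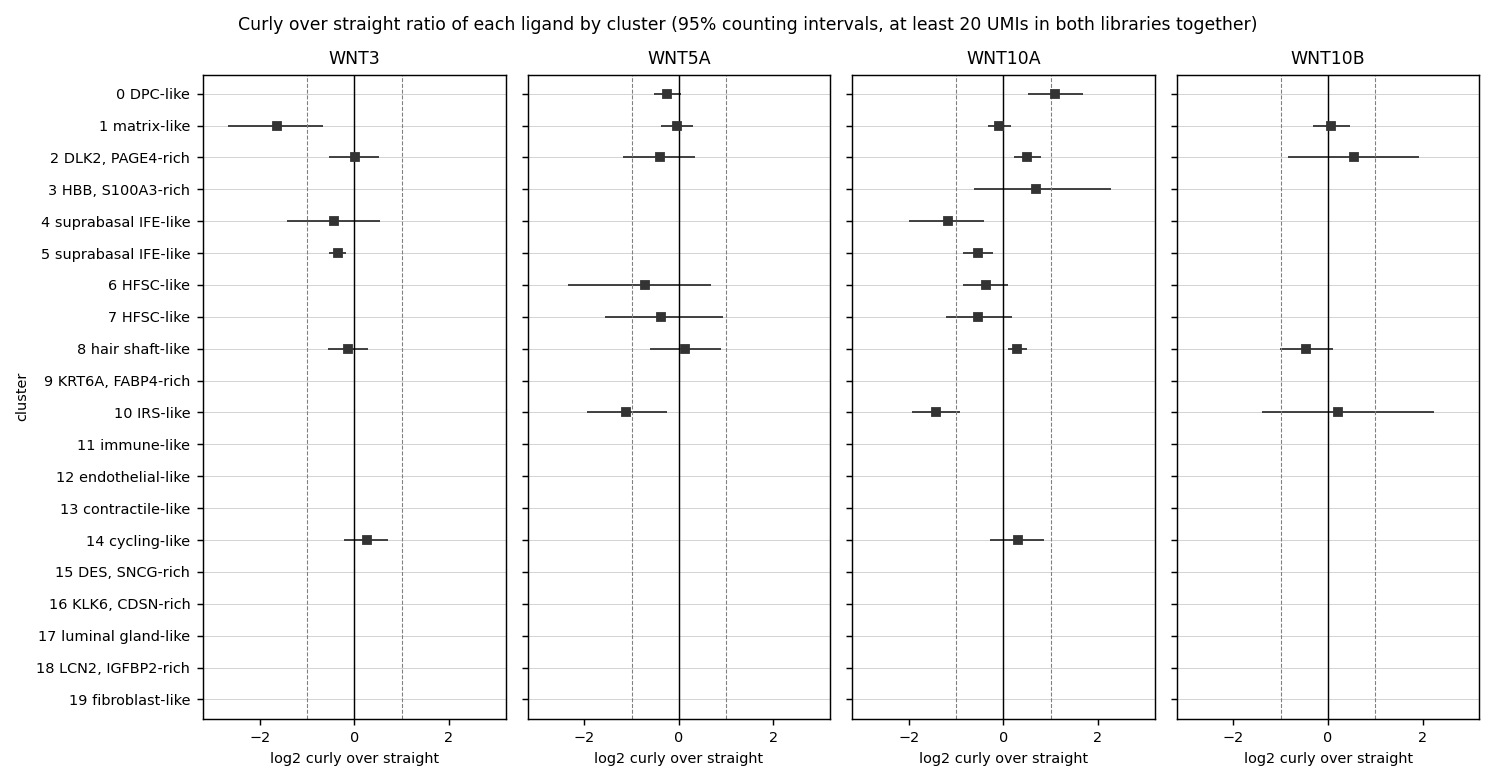
Log2 ratio of curly over straight (x axis) of each ligand by cluster (y axis), for clusters with at least 20 UMIs of the ligand in both libraries together, with 95% counting intervals and dashed lines at 2-fold. The intervals of WNT10A lie above 0 in clusters 0, 2 and 8 and below 0 in clusters 4, 5 and 10, and the intervals of WNT5A and WNT10B in their leading clusters include 0.

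Over all cells the ratios differed from those within the leading clusters, and the cells of the libraries fell into clusters in other proportions. WNT5A was at 12.3 CPM in the straight and 6.89 CPM in the curly library, a log2 ratio of -0.83 (-1 to -0.67), and DPC-like cells numbered 1235 in the straight and 662 in the curly library. At a common composition of clusters the ratio of WNT5A was -0.30, a calculation chosen after seeing the data. WNT3 was at 14.5 and 9.65 CPM, a ratio of -0.59 (-0.73 to -0.44), which was -0.25 at the common composition. WNT10B was at 3.00 and 3.97 CPM, a ratio of 0.40 (0.13 to 0.68), which was -0.01 at the common composition. WNT10A was level over all cells, at 23.4 and 23.2 CPM, with a ratio of -0.01 (-0.12 to 0.09), or 0.17 under TMM scaling, which shifted all log2 ratios by 0.18. Of all genes with at least 20 UMIs, 14.4% were at least 2-fold apart over all cells, and 0 of the 4 ligands were. The proportions of cells cannot be told apart from how the suspensions were mixed.

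WNT10A, level over all cells, was not level within clusters. In DPC-like cells it was at 7.25 CPM (5.49 to 9.40) in the straight and 15.5 CPM (11.4 to 20.6) in the curly library, a log2 ratio of 1.10 (0.51 to 1.68). In IRS-like cells it was at 31.2 CPM (23.7 to 40.3) in the straight and 11.6 CPM (9.26 to 14.4) in the curly library, a ratio of -1.43 (-1.93 to -0.92). The gene was thus higher in curly DPC-like cells and lower in curly IRS-like cells. The ratio was also above 0 in cluster 2, at 0.51 (0.21 to 0.80), and below 0 in cluster 4, at -1.18 (-1.99 to -0.41), and in cluster 5, at -0.54 (-0.86 to -0.23). Fewer IRS-like cells stood behind the straight value, 125 against 371 in the curly library, and 58 UMIs lay in 25 of them. WNT5A was lower in curly IRS-like cells too, at -1.11 (-1.94 to -0.25).

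Markers of the follicle epithelium were measured beside the WNT10A values in DPC-like cells. The summed level of 5 inner root sheath markers there was 204.8 CPM in the straight and 618.9 CPM in the curly library, with 5 of 5 higher in curly, and that of 4 hair shaft markers 80.92 and 191.3 CPM, with 3 of 4 higher. Endothelial-like cells had inner root sheath marker sums of 210.6 and 616.7 CPM and WNT10A levels of 3.83 and 3.47 CPM. Only 273 straight and 26 curly DPC-like cells had no UMI of these markers, and they held 23 and 1 UMIs of WNT10A, which is 15.8 and 9.19 CPM, so that the ratio in such cells could not be resolved. In the LUM-rich sub-cluster, which held 618 of 1235 straight but 461 of 662 curly DPC-like cells, the WNT10A ratio was 0.46 (-0.16 to 1.08). In IRS-like cells the inner root sheath marker sum was 19039.8 CPM in the straight and 25509.0 CPM in the curly library, and the hair shaft marker sum 313 and 143.6 CPM. What part these markers have in the WNT10A ratios was not tested.

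WNT3 was sparse in matrix-like cells, at 2.71 CPM (1.73 to 4.03) from 24 UMIs in straight and 0.866 CPM (0.485 to 1.43) from 15 UMIs in curly cells. The log2 ratio was -1.64 (-2.68 to -0.65). A UMI was found in 3.03% of straight and 1.22% of curly cells, or in 0.773% and 0.231% after thinning, where endothelial-like cells had 0.295% and 0.078%. Of these UMIs, 14 in the straight and 6 in the curly library lay in the UNG-rich sub-cluster.

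The other WNT ligands of the table showed where these genes had company. WNT4, an epithelial ligand, was highest by the mean of both libraries in cluster 14, at 18.9 CPM in the straight and 30.9 CPM in the curly library, with 15.5 and 26.3 CPM in cluster 2 and 9.73 and 17.2 CPM in cluster 5. In the straight library alone cluster 3 was higher, from 8 UMIs with an interval of 8.87 to 40.5 CPM. WNT16 lay in the same clusters, at 13.0 and 17.8 CPM in cluster 2 and 17.4 and 10.6 CPM in cluster 5. Matrix-like cells expressed WNT6 at 35.9 CPM and 41.5 CPM, and hair shaft-like cells at 22.6 and 34.3 CPM. In cluster 16, led by the kallikrein gene KLK6 and by CDSN, WNT11 was at 239 CPM in the straight and 118 CPM in the curly library, and WNT3, WNT5A, WNT10A and WNT10B had from 0 to 3 UMIs each in either library. WNT2B had 87 of its 138 straight UMIs in immune-like cluster 11. In the curly library 1 of its 49 UMIs lay there and 17 lay in matrix-like cells. WNT2 had 2 UMIs in the straight and 5 in the curly library, WNT3A had 0 and 1, and WNT1, WNT7A, WNT7B, WNT8A, WNT8B and WNT9B were not analysed here.

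**Figure D5:**
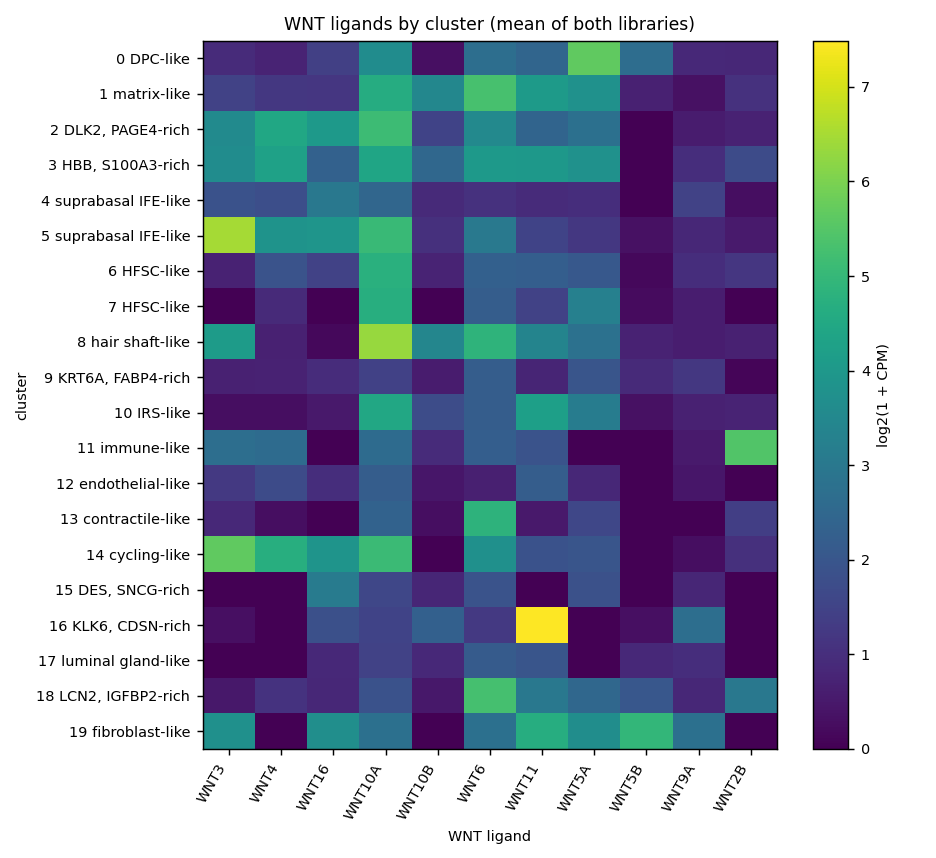
Mean level over both libraries of 11 WNT ligands (x axis) in 20 clusters (y axis), as log2 of 1 plus CPM (colour). WNT3, WNT4 and WNT16 are met in clusters 2, 5 and 14, WNT10B and WNT6 in clusters 1 and 8, WNT6 also in clusters 13 and 18, and WNT10A in cluster 8 above a broad range of clusters, and WNT11 stands out in cluster 16, while clusters 3 and 19 rest on few UMIs.

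The rest of the pathway was counted from lists of 66 genes, of which 58 were in the table. In DPC-like cells 42 of them had at least 20 UMIs, and 4 were at least 2-fold higher and 4 at least 2-fold lower in the curly library, which is 8 of 42 beside the 13.3% of all genes. The higher ones were WNT5B, WNT10A, SFRP5 and DKK3 and the lower ones WNT16, FZD1, FZD10 and WIF1, the last a secreted inhibitor that binds WNT proteins, at 1588.2 CPM in the straight and 698 CPM in the curly library. The median log2 ratio of these 42 genes was -0.09, and that of all genes -0.07. ROR2, a receptor of WNT5A, was highest in the same DPC-like cells, at 30.5 CPM in the straight and 18.4 CPM in the curly library. In matrix-like cells 1 of 49 list genes was higher (NKD2) and 4 were lower (WNT3, WNT4, SFRP2 and WIF1). In cluster 5, 1 of 34 was higher (WNT6) and 3 were lower (WIF1, TCF7L2 and AXIN2). In hair shaft-like cells 0 of 38 were higher and 3 lower (FZD4, FZD7 and WIF1). In these clusters WIF1 was far below its level in DPC-like cells, at 40.6 CPM in the straight and 9.06 CPM in the curly library in matrix-like cells, 9.12 and 1.2 CPM in cluster 5, and 7.22 and 1.79 CPM in hair shaft-like cells. Endothelial-like cells had 12.3 and 6.94 CPM of it and IRS-like cells 6.45 and 1.11 CPM, and the part of free RNA in these values was not tested. The shares in matrix-like, cluster 5 and hair shaft-like cells can be read beside the 6.28%, 14.1% and 7.93% of all genes given above.

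The genes that ligands need for release, and other genes of the canonical branch, were spread differently. WLS, the carrier of WNT proteins, was highest in cluster 18, led by LCN2 and IGFBP2, at 300 CPM in the straight and 235 CPM in the curly library. By the mean of both libraries DPC-like cells followed, at 209 and 234 CPM. PORCN, the enzyme that adds the lipid, was highest in cluster 5, at 12.6 CPM and 8.41 CPM, the cluster that led for WNT3. LEF1, the nuclear partner of β-catenin, was highest in the hair shaft-like cells that led for WNT10A, at 125 CPM in the straight and 131 CPM in the curly library. NOTUM, an enzyme that removes the lipid from WNT proteins, was highest in matrix-like cells, at 18.5 and 17.6 CPM.

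The genes with the most similar pattern to each ligand were sought among 13196 genes with at least 100 UMIs, by Pearson correlation of log2(CPM + 5) over 40 values, which are 20 clusters in 2 libraries and share library and depth. For WNT3 these were LOC101102719 (r = 0.837), ALDH3A1 (0.832), SCUBE2 (0.810), GKN1 (0.792) and LOC101116002 (0.777), all higher in cluster 5 than in other cells. ALDH3A1, an aldehyde dehydrogenase gene, was in cluster 5 at 76.2 CPM in the straight and 46.0 CPM in the curly library, against 4.34 and 2.19 CPM elsewhere. For WNT5A they were STEAP2 (0.760), SCUBE3 (0.739), RUNX3 (0.737), NLGN2 (0.730) and GPR173 (0.725). SCUBE3, a secreted protein gene, was at 91.7 and 95 CPM in DPC-like cells against 1.88 and 2.07 CPM elsewhere. For WNT10B they were MPV17L (0.820), LOC101112805 (0.793), GPNMB (0.792), LOC105606726 (0.779) and FABP7 (0.777), and matrix-like cells had FABP7 at 361 and 280 CPM against 14.7 and 11.3 CPM elsewhere. For WNT10A they were PRXL2A (0.741), YDJC (0.736), MRPL42 (0.730), PITPNM3 (0.725) and PPP1R14B (0.720), of which PRXL2A was lower in hair shaft-like than in other cells, at 47.6 and 56.2 CPM against 98.9 and 66.9 CPM. By Spearman's rho, 1, 0, 4 and 0 of the 5 genes named for WNT3, WNT5A, WNT10A and WNT10B were also among the 5 most similar. Of the ligands compared in this way WNT3 was closest to WNT4 (0.718), and WNT3 and WNT5A were the least alike of the 4, at -0.147.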

How the data were processed

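Per the labels, single cells of pooled lambskin were sequenced, and the submitters' processing notes name Cell Ranger 3.0.2. The deposited values were the natural log of 1 plus UMIs scaled by the authors to 10000 per cell. The design had been fixed for counts, which the table did not hold directly. UMI counts were recovered from it, and 100% of 28552149 values above 0 came out whole within 0.01. Libraries were integrated with Seurat 5.3.0 (R 4.3.3) on 2000 variable genes without WNT list genes, using 30 dimensions and resolution 0.3, the lowest in steps of 0.1 with at least 19 clusters. A class name needed a score of 1.5 and 3 markers detected in at least 10% of cells; these limits were set after seeing the data. Levels were summed UMIs as CPM with exact Poisson intervals, shares had Clopper-Pearson intervals, and ratios had exact binomial intervals. Pseudotime used scanpy 1.11.5 with 30 neighbours and 10 diffusion components. Python 3.11.15, numpy 2.4.6, scipy 1.17.1 and pandas 2.3.3 were used, and the ratio calculation was tested on simulated data. Named genes were the 4 ligands, the WNT lists, the markers, and the 5 genes most like each ligand; leading genes of clusters and sub-clusters were named after their values were seen. The members and lists were chosen with earlier results of these data known. Marker lists held 95 genes, 88 of them in the table. Doublets were not removed in the main results, since Scrublet's own threshold called 0.541% of cells; in the alternative, the 842 cells with the highest 6% of scores were removed. Sequences of the ligands were not used here.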

Additional observations from a re-analysis of the deposited data

Results flagged for a closer look

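The curly over straight ratio of WNT10A had opposite signs in different clusters, with counting intervals on either side of 0. The log2 ratio was 1.10 in DPC-like cluster 0, 0.51 in cluster 2 led by DLK2 and PAGE4, and 0.29 in hair shaft-like cluster 8. It was -1.18 in suprabasal IFE-like cluster 4, -0.54 in suprabasal IFE-like cluster 5 and -1.43 in IRS-like cluster 10. In hair shaft-like cells a mean of per-cell CPM gave a ratio below 0. In the LUM-rich sub-cluster of DPC-like cells the ratio was 0.46 (-0.16 to 1.08). It was not resolved in DPC-like cells without follicle marker UMIs, and higher in those above the study's stated minimum of genes. With 1 library per wool type the difference between clusters was not tested.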

How the results depend on the processing

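No paired analysis was possible because each wool type had 1 library, and no replicate could be left out. At resolution 0.8 each cluster was matched to 1 smaller cluster. WNT3 in cluster 5 was then at 121 and 103 CPM in straight and curly cells. WNT5A in straight DPC-like cells was at 80.9 CPM, with a log2 ratio of -0.59 (-0.95 to -0.25). For WNT10B the match was the UBE2C-rich matrix-like cells, at 4.77 CPM in straight cells with a ratio of 1.03 (0.28 to 1.84). The UNG-rich and PTGS2-rich matrix-like cells had WNT10B ratios of -0.44 and -0.83. The WNT10A ratio in DPC-like cells was 0.46. With WNT genes among the clustering genes, curly WNT3 in cluster 5 was at 93.5 CPM and its ratio was 0.00. Without integration, curly WNT3 was at 61.9 CPM (ratio -0.69) and curly WNT5A at 33.7 CPM (11 to 78.7), a ratio of -0.67 (-2.30 to 0.56) from a matched cluster of 1239 straight and 24 curly cells. In cells above the study's stated minimum of genes, WNT3 was at 52.8 and 42.4 CPM, straight WNT5A at 47.7 CPM (ratio 0.11), straight WNT10A at 62.3 CPM, and the WNT10A ratio in DPC-like cells was 1.84. With the 842 cells of the highest 6% of doublet scores removed, WNT3 was at 52.7 and 43.7 CPM. A mean of per-cell CPM gave 111 and 93.3 CPM for WNT3, 61.8 CPM for straight WNT5A (ratio -0.59), 95.2 CPM for straight WNT10A (ratio -0.14), 15.9 and 12.0 CPM for WNT10B (ratio -0.41), and a WNT3 ratio over all cells of -0.13. Over all cells, TMM scaling shifted all log2 ratios by 0.18 and gave -0.40 for WNT3, -0.65 for WNT5A and 0.17 for WNT10A. A common composition of clusters, added after seeing the data, gave -0.25 for WNT3, -0.30 for WNT5A and -0.01 for WNT10B. DPC-like cells without inner root sheath or hair shaft marker UMIs, also added later, gave a WNT10A ratio of -0.78 from 23 and 1 UMIs. The cause of these shifts was not tested.

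Shares of cells with a UMI were, for straight and curly cells without thinning, 51.7% and 46.3% (WNT3), 26.2% and 17.2% (WNT5A), 54.3% and 64.4% (WNT10A) and 8.92% and 11.6% (WNT10B). At 1000 UMIs they were 10.7% and 8.66%, 5.48% and 4.11%, 7.79% and 8.11%, and, for WNT10B in curly cells, 1.19%. Thinning changes the share by construction. The share of genes at least 2-fold apart was 8.05% in DPC-like, 2.79% in matrix-like and 3.71% in hair shaft-like cells among genes with at least 100 UMIs. With at least 1 UMI it was 29.6% in DPC-like cells, 21.4% in matrix-like cells, 29.6% in cluster 5, 25.4% in hair shaft-like cells and 21.7% over all cells. Pseudotime on 20 principal components left all 8 end ratios within their counting intervals, but the interval of curly WNT10B (0.08 to 1.43) no longer included 0 and that of straight WNT5A (-2.20 to 0.07) did. By Spearman's rho, 1, 0, 4 and 0 of the 5 most like genes of WNT3, WNT5A, WNT10A and WNT10B stayed among the 5.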
